A study of Saccharomyces cerevisiae with 10 samples.

Results

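Chromosomes II, XI and XIII of Saccharomyces cerevisiae were examined for short, isolated runs of SNPs at which a diploid had lost 1 of its 2 alleles. All probes whose names place them on these 3 chromosomes were taken, apart from the probes around LYS2 on chromosome II, a lysine biosynthesis gene widely used as a genetic marker. That left 11227 of the 53664 probes on the array and 2815 of its 13461 SNPs, namely 1024 SNPs on II, 713 on XI and 1078 on XIII. The chromosomes were chosen by d, the difference between the log2 ratios of the alleles defined below, because earlier results of the same arrays had shown few and short losses there. The positions, lengths and allele levels of those losses are therefore given as a description and without a test.

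The study asked how cutting of genomic ribonucleotides by RNase H2, the enzyme that removes ribonucleotides embedded in DNA, bears on genome instability. Genomic DNA of 10 diploid isolates was labelled with Cy5 and hybridised, on 1 array per isolate, against DNA of the diploid JSC24 in Cy3. The isolates were A and B of HK10 and A and B of HK12, which the labels call purified isolates, and 6 zygotes from crosses to LSY3454-2, of which 4 had MD893-1 and 2 had MD893-2 as the other parent. All 10 are labelled diploids of W303-1A by YJM789, grown in YPD medium, and the labels used here give no genotype for any HK or MD strain. The A and B isolates that share a name may come from 1 culture, so that a loss found in both need not be 2 events.

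A diploid made from diverged parents is heterozygous at every SNP that separates them. When a broken chromosome is repaired from its homolog, a short patch of sequence can be copied from one to the other, which is gene conversion, and it leaves an interstitial stretch with a single allele between heterozygous flanks. Crossing-over and break-induced replication instead make a chromosome homozygous from the exchange point out to its end. Loss of a whole homolog removes one allele along its entire length. On a SNP array each allele has its own probes. Loss of heterozygosity (LOH) lowers the signal of the lost allele and, where the copy number stays at the diploid level, raises that of the kept one.

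For each SNP, d was the S level minus the Y level, each level being the mean log2 ratio to the control over the probes of that allele. The letters S and Y come from the probe names and the labels do not say which parent each stands for. A value near 0 is heterozygous, a strongly negative value means that the Y allele was kept, and a strongly positive value that the S allele was kept. Positions are those in the deposited probe names. Their genome build is not given in the sources used here, so no gene was placed on them. A tract was a stretch of at least 5 measured SNPs that a hidden Markov model put in a homozygous state, and its length ran to the midpoints between its outermost SNPs and the next measured SNPs.

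The SNPs of the 3 chromosomes spanned 791 kb on II, 655 kb on XI and 904 kb on XIII, 2350 kb in all. The median spacing was 341 bp on II, 378 bp on XI and 407 bp on XIII, and 5 neighbouring SNPs covered a median of 1.99, 2.44 and 2.51 kb in that order. Gaps over 5 kb between SNPs made up 25.7% of the span of II, 21.4% of XI and 16.6% of XIII, and losses inside them could not be seen. The HK arrays lacked values for 4.80% to 7.14% of these probes, against 0.935% to 4.02% on the MD893-1 zygote arrays and 10.2% to 10.5% on the MD893-2 zygote arrays. A measured value at both alleles was present for 2656 to 2710 SNPs in the HK isolates and 2575 to 2794 SNPs in the zygotes.

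The 3 chromosomes held 4 distinct tracts, all in HK isolates. HK10 A and B shared a tract on II and another on XIII, HK12 A and B shared a tract near the right end of XI, and HK12 B alone had a further tract in the interior of XI. The Y allele was kept in the 3 shared tracts and the S allele in the tract of HK12 B. All 6 zygotes had 0 tracts on these chromosomes. Over all 16 chromosomes, zygotes 1 to 4 of MD893-1 had 0.0375%, 0.0374%, 0 and 0.0384% of their SNPs in tracts with S kept, those of MD893-2 had 0.0406% and 0.0402%, and with Y kept the share was 0.0374% in MD893-1 zygote 2 and 0 in the others. Every tract lay between heterozygous SNPs on both sides, so that all 4 were interstitial.

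These tracts were a small part of the chromosomes. Both HK10 isolates had 11.9 kb in tracts (0.506% of the span), HK12 A had 9.46 kb (0.403%) and HK12 B had 26.2 kb (1.12%). In HK10 A and HK10 B the tracts, all with Y kept, held 14 SNPs each. Over all 16 chromosomes 11.8% of measured SNPs lay in tracts with Y kept in HK10 A and 11.7% in HK10 B. The XI tract with Y kept held 16 SNPs in HK12 A and 18 in HK12 B. Tracts with Y kept took up 0.356% of SNPs over all chromosomes in isolate A and 0.337% in isolate B. The S tract of HK12 B held 5 SNPs, and tracts with S kept took up 12.1% of its SNPs over all chromosomes. The other HK isolates had 0 SNPs in tracts with S kept on these 3 chromosomes, and over all chromosomes 5.42% in HK10 A, 1.61% in HK10 B and 7.01% in HK12 A. The share of measured SNPs in tracts of either kind was 0.517% in both HK10 isolates, 0.602% in HK12 A and 0.853% in HK12 B. On the other 13 chromosomes it was 21.7% and 16.8% in the HK10 isolates A and B and 9.16% and 15.5% in the HK12 isolates A and B. The chromosomes were picked for these low shares, and nothing is read from the difference.

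**Figure D1:**
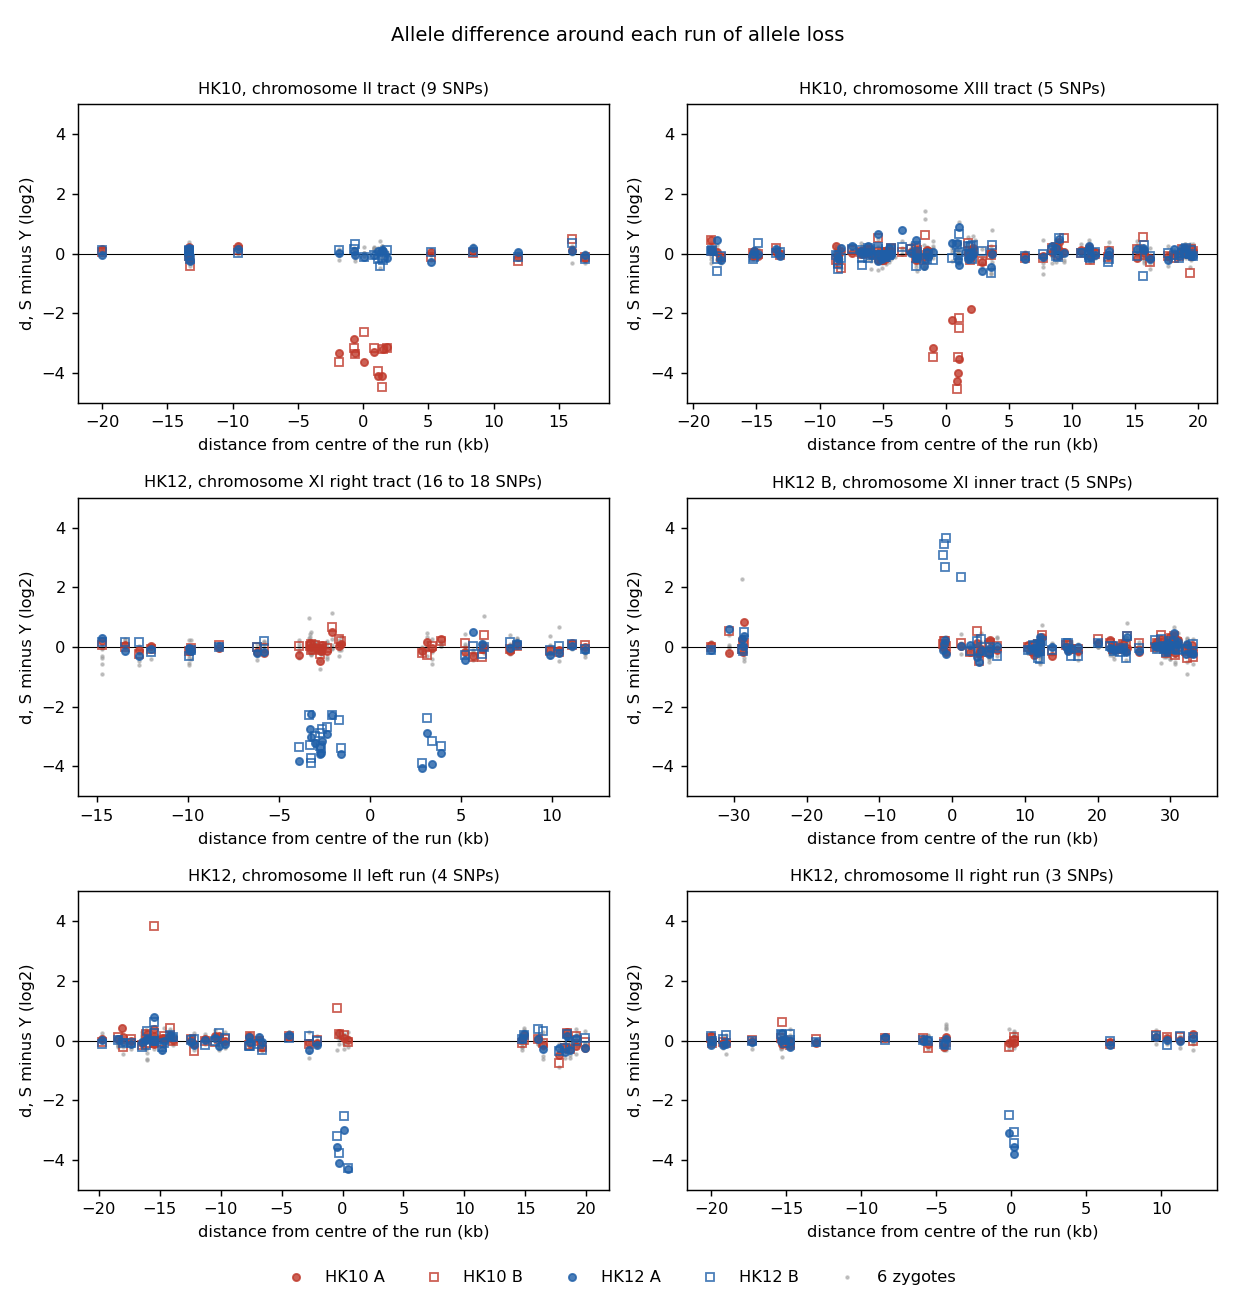
Allele difference d (log2, S minus Y) of each measured SNP against its distance in kb from the centre of the run, for the 4 tracts and the 2 shorter runs on chromosome II. Red points are HK10, blue points HK12 (filled A, open B) and grey points the 6 zygotes. The points far from 0 at each centre belong to isolates with the loss. In those isolates the next measured SNP on either side of each run lies between −0.44 and 0.49.

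The HK10 tract on II ran over 9 measured SNPs from position 285653 to position 289315 and was 9.23 kb long by its midpoints. Its extent could lie anywhere between 3.66 kb, at the outermost SNPs, and 14.8 kb, at the nearest heterozygous SNPs at 277899 and 292703. The median d over its SNPs was −3.32 in HK10 A and −3.21 in HK10 B. Over the SNPs measured between the same ends, the median d was 0.03 in HK12 A (9 SNPs) and −0.09 in HK12 B (11 SNPs). Zygotes 1 to 4 of MD893-1 gave 0.16, 0.07, 0.07 and 0.05, over 11, 11, 9 and 10 SNPs. The MD893-2 pair gave −0.03 and 0.15, over 9 and 11 SNPs. The SNPs beyond 9 were those at 288787 and 289056, which had no d in HK10. The medians of HK12 B, MD893-1 zygote 1 and MD893-2 zygote 2 were each the value at 289056. The 2 HK10 isolates lay far below the other 8, which spread over −0.09 to 0.16, and the sets did not overlap. Here and at the tracts and runs below, d itself defined the loss, so such a separation in d was built in.

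Single SNPs of the II tract ran from −4.11 to −2.85 in HK10 A and from −4.46 to −2.61 in HK10 B. The outermost measured SNPs were the same in both isolates. A pair of further SNPs inside it, at 288787 and 289056, had no S value in HK10 A or B and so gave no d. Their Y probes read 0.91 and 1.10 in HK10 A and 0.85 and 0.80 in HK10 B. The zygotes gave 0.17 to 0.26 at the first position and 0.08 to 0.43 at the second, so the Y allele was above every zygote at both. The 20 nearest measured SNPs to the left had a median d of 0.08 in HK10 A and 0.10 in HK10 B, and the 20 to the right −0.04 and −0.11.

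One SNP among the 20 on the right stood apart in both HK10 isolates. The SNP at 311594 had d of −3.72 (isolate A) and −3.82 (isolate B), while the other 8 isolates gave −0.44 to 0.13. The S level was −2.94 in HK10 A (2 probes) and −3.15 in HK10 B (1 probe), and the Y level was 0.81 and 0.70. In the other isolates the S level lay between −0.16 and 0.31 and the Y level between −0.02 and 0.38. This SNP lies 22.3 kb from the tract. Its neighbours at 304459 and 315642 had d of −0.14 and −0.58 in HK10 A and −0.13 and −0.25 in HK10 B. It was singled out after its values were seen and was too short to count as a run. On the 3 chromosomes it was the only lone SNP with d beyond 1.5 in the same direction in both isolates of an HK name, with 1 such SNP in HK10 and 0 in HK12. Over all chromosomes 0.0158% of SNPs measured in both HK10 isolates and 0.0323% of those measured in both HK12 isolates met that rule.

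The HK10 tract on XIII was the shortest by its midpoints, at 2.65 kb, and the most tightly bounded. Its 5 measured SNPs began at 806105 and ended at 808173 (isolate A) or 808182 (isolate B). The nearest heterozygous SNPs, at 805711 and 808944, limited it to 3.23 kb. The SNP at 808182 had no S value in HK10 A, so the ends in A and B differ by a missing measurement and not by a measured heterozygous SNP. The median d was −3.54 in HK10 A and −3.46 in HK10 B. The HK12 isolates gave 0.21 and −0.00, the MD893-1 zygotes 0.02, 0.08, 0.05 and 0.12, and the MD893-2 zygotes −0.15 and 0.27. Both HK10 isolates were below all 8 others.

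Values within the XIII tract were more spread than in the II tract, from −4.26 to −2.23 in HK10 A and from −4.52 to −2.15 in HK10 B. Relative to heterozygous SNPs of the chromosome, the Y allele was not raised at every SNP of it. At 807642 the Y level was −0.04 in HK10 A and 0.06 in HK10 B, within the zygotes' −0.69 to 0.12. At 808182 isolate A had −0.07 and isolate B −0.18, against −0.98 to −0.07 in the zygotes. Y levels were also set against the zygote median of the same SNP, a scale chosen after seeing the data. On it the lowest Y level at a SNP with d was 0.23 in HK10 A and 0.15 in HK10 B. The S level, where measured, was low at both 807642 and 808182, with −2.29 for isolate A at 807642 and −2.36 for isolate B at 808182. The 20 SNPs on the left had median d of 0.04 in HK10 A and 0.05 in HK10 B, and the 20 on the right 0.04 and 0.01. The lowest of those on the right, −1.86, was seen in HK10 A, and the lowest in HK10 B was −0.23.

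The HK12 tract near the right end of XI had the most SNPs, 16 in HK12 A and 18 in HK12 B, from 642427 to 650268. Its length was 9.46 kb by the midpoints, with limits of 7.84 and 11.1 kb set by heterozygous SNPs at 640508 and 651584. The median d was −3.27 in HK12 A and −3.22 in HK12 B. The HK10 isolates gave −0.01 and 0.03, the MD893-1 zygotes −0.02, −0.03, 0.03 and −0.09, and the MD893-2 zygotes −0.08 and −0.01. Both HK12 isolates were thus far below the other 8, whose values spanned −0.09 to 0.03.

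Within this tract d ran from −4.06 to −2.23 in HK12 A and from −3.89 to −2.26 in HK12 B. The SNPs fell into a left cluster, up to 644767, and 4 SNPs from 649226 onward, with no SNP measured between. All 4 on the right were in the homozygous range, with d of −4.06, −2.88, −3.93 and −3.54 in HK12 A and −3.89, −2.38, −3.14 and −3.32 in HK12 B. The SNPs at 642997 and 644634 gave no d in HK12 A. At the first of these the S level alone was −1.84 there, and d was −2.28 in HK12 B. The tract ended 7.87 kb short of the last SNP of the map. Beyond it 9 measured SNPs in HK12 A had d between −0.44 and 0.50, and 10 in HK12 B had d between −0.28 and 0.16, so both alleles were read again before the chromosome end.

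The tract found in HK12 B alone lay in the interior of XI, with 5 SNPs from 257395 to 259919 and the S allele kept. It is the tract whose length is least known. Its left neighbour on the map was at 230076, across the largest gap of the 3 chromosomes (27.3 kb), and its right neighbour at 261068. The extent could be as short as 2.52 kb or as long as 31.0 kb, and the 16.8 kb by the midpoints was mostly gap. The median d was 3.08 in HK12 B and 0.05 in HK12 A. It was 0.04 in HK10 A and 0.12 in HK10 B. The 4 zygotes of MD893-1 gave −0.03, 0.04, 0.01 and 0.00, and the MD893-2 pair −0.00 and −0.12. HK12 B was above the other 9 isolates, HK12 A among them.

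The 5 SNPs read 3.08, 3.46, 2.68, 3.65 and 2.33 in HK12 B from left to right. In HK12 A they read −0.08, 0.11, 0.24, −0.22 and 0.05, each within the spread of heterozygous SNPs. The left-hand neighbour at 230076 was at 0.49 in HK12 B and the right-hand one at −0.13. The other HK12 tract on the same chromosome was 383 kb away and was present in both isolates. The isolates of the name HK12 thus shared one XI tract and differed in the other, while HK10 A and B shared both of theirs.

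**Figure D2:**
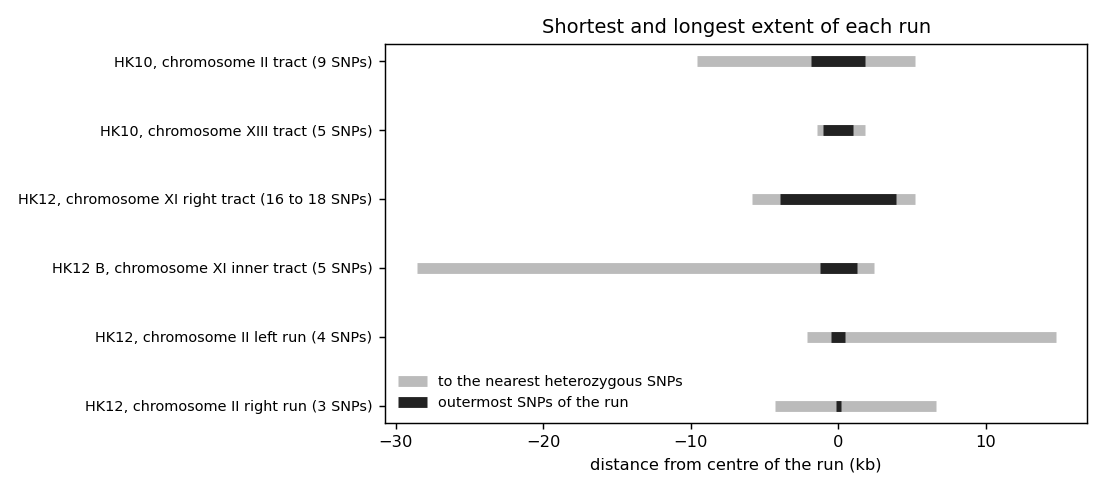
Shortest and longest extent of each run in kb from its centre. Black bars join the outermost SNPs of the run and grey bars reach the nearest heterozygous SNPs. The grey bar of the inner XI tract of HK12 B is the longest (31.0 kb) and that of the XIII tract of HK10 the shortest (3.23 kb).

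Shorter runs of 3 or 4 consecutive SNPs with d beyond 1.5 in size fell under the limit of 5 SNPs. Chromosome II had 2 of them, both in HK12 A and HK12 B and both with Y kept, and XI and XIII had 0. They held 7 SNPs in each isolate. Over all 16 chromosomes SNPs in such runs with d under −1.5 made up 0.119% of those measured in HK12 A and 0.11% in HK12 B. The shares were 0.0777% in HK10 A and 0.0854% in HK10 B, which had 0 such SNPs on these 3 chromosomes. The zygotes had 0 such runs here and shares over all chromosomes of 0.023% in MD893-1 zygote 4, 0.0241% in MD893-2 zygote 2 and 0 in the other 4.

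The left run covered 101468, 101678, 102105 and 102421. In HK12 A these SNPs read −3.56, −4.12, −3.01 and −4.29, and in HK12 B −3.21, −3.76, −2.52 and −4.26. Both isolates thus had all 4 SNPs in the homozygous range and the same order of size. The median d was −3.84 in HK12 A and −3.48 in HK12 B, against 0.07 in HK10 A, 0.20 in HK10 B and −0.20 to 0.15 in the zygotes. Among the other isolates the value farthest from 0 was 1.10, at 101468 in HK10 B. The run was at least 0.953 kb long, and heterozygous SNPs at 99838 and 116691 limited it to 16.9 kb.

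The right run covered 693225, 693555 and 693567. These SNPs read −3.10, −3.80 and −3.57 in HK12 A and −2.51, −3.43 and −3.06 in HK12 B. The other 8 isolates had medians between −0.24 and 0.21 and did not overlap with either HK12 isolate. The run was at least 0.342 kb long and at most 10.9 kb, between heterozygous SNPs at 689078 and 700011. It lay 591 kb from the left run, and the HK10 tract on II lay between them, 183 kb from the left run and 404 kb from the right one. HK10 and HK12 had no run in common on these chromosomes. Tracts held only 0.517% of the measured SNPs here in both HK10 isolates, 0.602% in HK12 A and 0.853% in HK12 B. With shares this small, nothing is read from the lack of overlap.

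The levels of both alleles moved at the 4 tracts and the 2 runs. In HK10 the Y allele at the II tract was at 0.73 ± 0.10 in isolate A and 0.70 ± 0.13 in isolate B (log2, median ± SD over 9 SNPs) relative to heterozygous SNPs of the chromosome. That is 1.66 and 1.62 times the heterozygous level. The S allele was at −2.61 ± 0.45 and −2.58 ± 0.47, or 0.164 and 0.167 times the heterozygous level. In the other 8 isolates the medians were −0.09 to 0.02 for Y and −0.12 to 0.02 for S.

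At the XI tract near the right end the kept Y allele was at 0.75 ± 0.14 in HK12 A and 0.74 ± 0.40 in HK12 B. The lost S allele was at −2.39 ± 0.52 in HK12 A and −2.46 ± 0.45 in HK12 B. At the inner XI tract HK12 B had the roles of the alleles exchanged, with S at 0.73 ± 0.18 and Y at −2.46 ± 0.70, while HK12 A had 0.17 ± 0.18 for S and 0.03 ± 0.11 for Y. The left II run had Y at 0.74 and 0.58 and S at −3.09 and −3.12 in HK12 A and B, the lowest S medians of the set. The right II run had Y at 0.89 and 0.73 and S at −2.65 and −2.69. At each of these the isolates with the loss were outside the range of all others for both alleles. The difference of these levels is d, which defined the losses, so this is a description.

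The XIII tract of HK10 had the lowest level of the kept allele as a mean over isolates (0.53). Its Y level was 0.63 ± 0.39 in HK10 A and 0.43 ± 0.45 in HK10 B over 5 SNPs, so that HK10 A was above the 0.58 of HK12 B at the left II run. The levels at this tract overlap with those of the other loci within the SD over SNPs. Its S level was −2.92 ± 0.64 in HK10 A and −2.42 ± 0.72 in HK10 B. The wide SD of the Y level came with the low Y values at 807642 and 808182 given above. Set against the same SNPs in the 6 zygotes, an alternative chosen after seeing the data, the Y level was 0.47 in HK10 A and 0.39 in HK10 B. The other loci gave 0.62 to 0.83 on that scale. Over the 11 combinations of locus and isolate, the kept allele averaged 0.67 ± 0.13 and the lost allele −2.72 ± 0.24 (log2, SD over combinations, which share arrays and SNPs).

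Tracts of more than 50 SNPs on other chromosomes of the same isolates gave the scale of a long loss. Their 13 medians were 0.58 to 0.74 for the kept allele and −2.98 to −2.47 for the lost one. The kept-allele medians of the short runs, 0.43 to 0.89, included values on both sides of that range. Their lost-allele medians, −3.12 to −2.39, did so too.

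**Figure D3:**
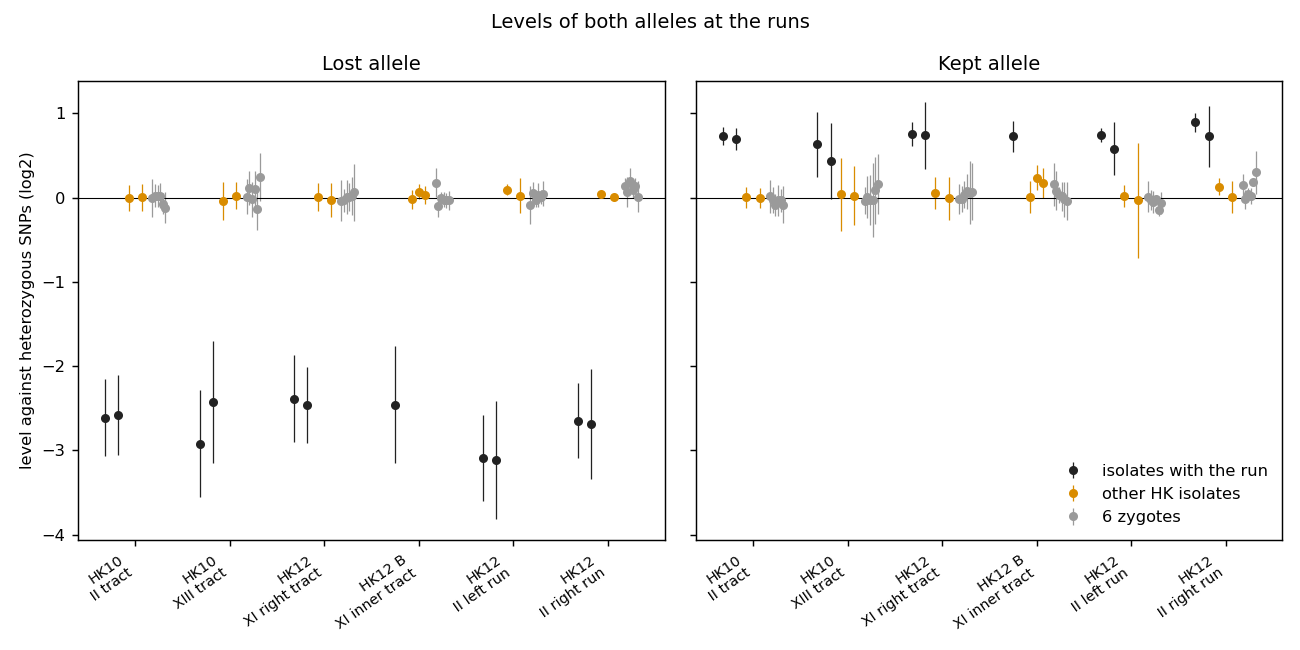
Level of the lost allele (left) and of the kept allele (right) at each tract and run, in log2 units relative to heterozygous SNPs of the same chromosome and array. Points are isolate medians over SNPs and bars are the SD over SNPs. Black points (isolates with the run) lie below −2.3 for the lost allele and between 0.43 and 0.89 for the kept allele, while other HK isolates (orange) and zygotes (grey) lie near 0.

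The loss was read by probes of both strands at these loci. The loci and the isolates with a loss were picked by d, which is made from these same probes. Low values of the lost allele there follow from that choice, and the counts are a description. In the isolates with a loss, 138 of 139 measured values of lost-allele probes were under −1, with a range of −5.35 to −0.78. The median was −2.68 for strand F and −2.60 for strand R. Kept-allele probes were above 0 in 157 of 166 values, with medians of 0.72 for strand F and 0.74 for strand R. In the zygotes, 2 of 515 values of the same lost-allele probes were under −1. In isolates with the loss, values were missing for 31 of 170 lost-allele probes (18.2%) and for 11 of 177 kept-allele probes (6.21%). In the zygotes the same probes lacked 25 of 540 (4.63%) and 37 of 558 (6.63%). Missing lost-allele probes reduce the number of SNPs that can be counted in a short run.

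Where isolates A and B of a name shared a run, their values at its SNPs could be set side by side. The mean absolute difference between them was 0.26 at the II tract of HK10 (9 SNPs), 0.54 at its XIII tract (4 SNPs measured in both) and 0.44 at the XI tract of HK12 (16 SNPs). At the II runs of HK12 it was 0.31 and 0.49. Across the SNPs of the II tract, d in A and B correlated with Pearson's r of 0.65, and across those of the XI tract with 0.34. These are descriptions across SNPs that share probes and so probe-specific responses.

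**Figure D4:**
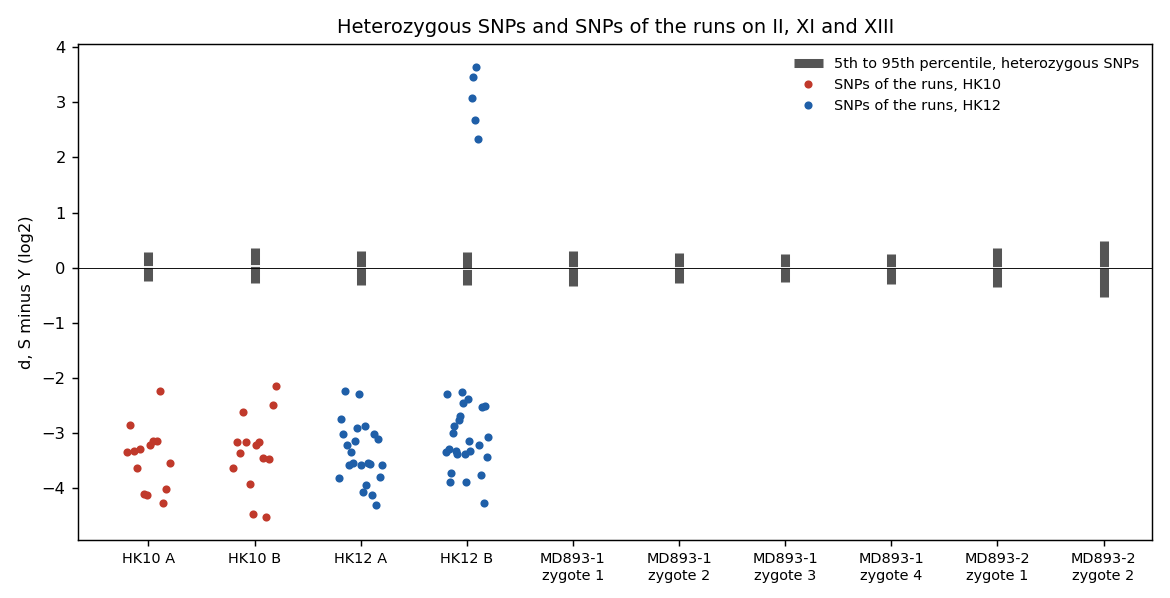
Allele difference d (log2, S minus Y) on chromosomes II, XI and XIII by isolate, HK isolates first. Grey bars run from the 5th to the 95th percentile of the heterozygous SNPs with their median as a white tick, and points are SNPs of the tracts and runs. The bars stay within −0.52 to 0.49 on all 10 arrays, and the points lie at −2.15 or lower or at 2.33 or higher.

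Outside the tracts and runs, the model put the measured SNPs of the 3 chromosomes in the heterozygous state in all 10 isolates. Lone SNPs stayed in that state whatever their d, the SNP at 311594 in HK10 among them. The heterozygous state held 2696 SNPs in HK10 A (median d 0.02), 2693 in HK10 B (0.03), 2633 in isolate A of HK12 (−0.01) and 2665 in its isolate B (−0.02). The central 90% of heterozygous SNPs lay between −0.24 and 0.29 in HK10 A, −0.28 and 0.36 in HK10 B, −0.32 and 0.31 in HK12 A and −0.31 and 0.28 in HK12 B. The zygotes' limits ran from −0.27 and 0.25 in MD893-1 zygote 3 to −0.52 and 0.49 in MD893-2 zygote 2. The noise of d, a robust SD, was 0.135 to 0.166 in the HK isolates and 0.142 to 0.279 in the zygotes, so these ranges overlapped.

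Heterozygous SNPs with d beyond 0.5 in size made up 1.85% and 3.68% in the HK10 isolates A and B and 3.27% and 2.40% in the HK12 isolates A and B. Their share was 1.65%, 0.931%, 1.57% and 1.87% in zygotes 1 to 4 of MD893-1, and 4.50% and 10.4% in the MD893-2 pair. HK10 A lay inside the range of the MD893-1 zygotes, and the other HK isolates lay between the crosses. Over all 16 chromosomes the share was 1.85% and 3.9% in the HK10 isolates, 3.24% and 2.55% in the HK12 isolates, 1.52%, 0.779%, 1.37% and 2.03% for MD893-1, and 4.66% and 10.1% for MD893-2. Each array's share on the 3 chromosomes was thus near its share over the genome. Lone SNPs with d beyond 1.5 numbered 5 and 6 in the HK10 isolates and 4 in each HK12 isolate, against 1, 0, 1, 4, 6 and 10 in the zygotes. Genome-wide, such lone SNPs made up 0.0754% and 0.162% of those tested in the HK10 isolates and 0.205% and 0.117% in the HK12 isolates. For MD893-1 the share was 0.0226%, 0.0225%, 0.0383% and 0.0694%, and for MD893-2 0.408% and 0.517%. Those of the HK isolates lay between the shares of the crosses. On the 3 chromosomes alone the counts are small.

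Some SNPs were off 0 in the same direction on every array. Of 2432 SNPs measured on all 10 arrays, 170 (6.99%) were, at 6.46% of those on II, 5.86% on XI and 8.22% on XIII. Genome-wide it was 7.53% of the SNPs heterozygous and measured on all arrays, so the share here is near that of the array. The pair with the largest median shift on II was at 54666 (−0.44) and 119729 (−0.37). On XI it was at 93405 (−0.42) and 289134 (0.34), and on XIII at 870875 (−0.45) and 13067 (−0.31). These shifts were small beside the medians at the tracts and runs, which were −3.06 or lower with Y kept and 3.08 with S kept. At 93405 a single array reached −2.05.

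The total signal of both alleles, s, was not used to choose the chromosomes and was compared between the 4 HK isolates and the 6 zygotes. At each SNP it is the mean of the S and Y log2 levels, relative to all heterozygous SNPs of the array. The value of a chromosome is the median over its heterozygous SNPs. On chromosome XI it was 0.05 and 0.08 in the HK10 isolates and 0.08 and 0.06 in the HK12 isolates, against −0.01, 0.00, 0.00 and −0.00 for MD893-1 and −0.01 and −0.00 for MD893-2. The HK isolates were above every zygote, with means of 0.07 ± 0.01 and −0.00 ± 0.01 (SD, n = 4 and n = 6) and a difference of 0.07 (1.05-fold). On chromosome XIII it was −0.05, −0.05, −0.04 and −0.05 in the HK isolates, against 0.02, 0.01, −0.01 and −0.00 for MD893-1 and −0.00 and −0.01 for MD893-2. The HK isolates were below every zygote, by 0.05 in the means (0.968-fold).

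Both differences gave p = 0.00952 in an exact two-sided permutation test over isolates, which no split of 4 against 6 can undercut, and became 0.0102 after adjustment for 16 chromosomes. On chromosome II, s averaged 0.003 ± 0.010 in the HK isolates and 0.003 ± 0.004 in the zygotes, the values overlapped, and the same exact permutation test gave p = 0.971. Centred on the median of all probes in place of heterozygous SNPs, the difference on II was −0.0136 and passed (adjusted p = 0.0203, exact permutation test), so the call for II depends on the centring. With the mean over SNPs in place of the median it was −0.00989 and did not pass (p = 0.0667, exact permutation test). Over all 16 chromosomes 93.8% passed the test, 56.2% with higher and 37.5% with lower signal in the HK isolates, so a call for XI and XIII is what most chromosomes gave. The differences on XI and XIII were also small beside the range over all chromosomes, which ran from −0.20 on XII to 0.72 on I. From the highest difference down XI ranked 7, II ranked 10 and XIII ranked 11 of 16. From the longest SNP span down they ranked 10, 7 and 6 in that order. The shortest chromosomes, I, VI and III, ranked 1, 2 and 3 by difference. The longest, IV, VII, XV and XII, ranked 15, 13, 14 and 16. Whether s depends on chromosome length was not tested. With 1 value per HK name the exact permutation p was 0.0714 for both, the smallest that 2 against 6 can give. Whether the HK and zygote arrays were run in separate batches is not given in the labels, so a batch and the group cannot be told apart for s.

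**Figure D5:**
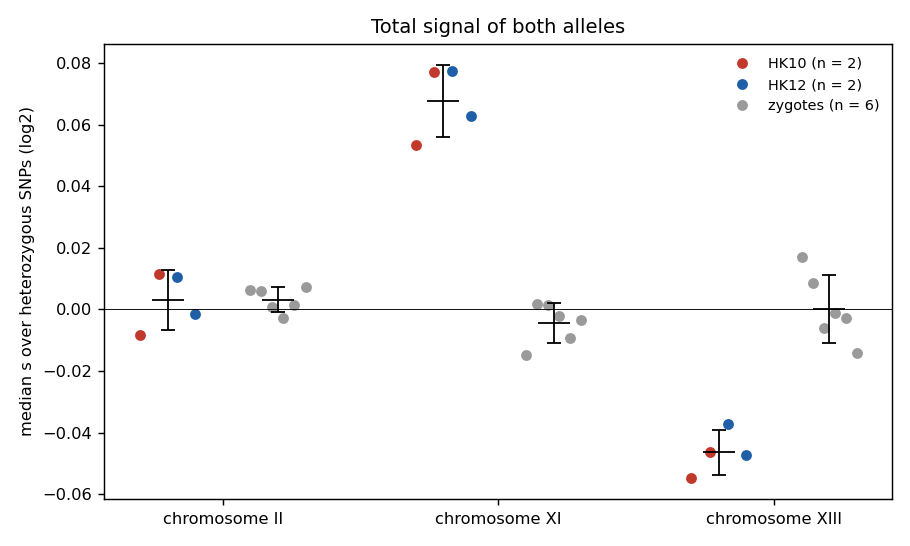
Total signal s of both alleles (log2, median over heterozygous SNPs) on chromosomes II, XI and XIII, for the HK isolates (red HK10, blue HK12) and the zygotes (grey), with mean and SD. The HK isolates lie above all zygotes on XI, below them on XIII, and overlap with them on II under the centring on heterozygous SNPs.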

How the data were processed

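DNA of 10 diploid isolates was read on 10 SNP arrays. Per the labels, isolate DNA carried Cy5 and DNA of the control JSC24 carried Cy3. The authors deposited 1 linear ratio of isolate to control per probe and array, and each array's ratios average 1 in the deposited table. The background correction, the normalization, the feature filter and the genome build were not stated in the sources. Columns named MD891 and MD892 match the sample sources of the crosses titled MD893-1 and MD893-2, and the titles set the groups.

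The log2 of each ratio was taken, and the median over an array's probes was subtracted. Allele levels were means over a SNP's S or Y probes, d was their difference, centred on its array median, and s their mean, centred on heterozygous SNPs. The hidden Markov model had Student t emissions with 4 degrees of freedom, centred at 0, 3 and −3, a homozygous scale of 0.8, the array's noise (at least 0.1) as heterozygous scale, and a change probability of 0.0001 per SNP. It ran over all 16 chromosomes. Tracts of isolates A and B were matched where they kept the same allele and both ends lay within 3 SNPs. Tract calling and the permutation test were tested on simulated data. The text names each tract, each run of 3 or 4 SNPs, and the 2 SNPs per chromosome with the largest shift in the same direction on all arrays. Flanks were the 20 nearest measured SNPs on each side. The members and lists were chosen with earlier results of these data known. Python 3.11.15, numpy 2.4.6, pandas 2.3.3, SciPy 1.17.1 and matplotlib 3.10.9 were used. The number of arrays limits the precision, and p-values measure the spread between these isolates, which may be technical within an HK name. Alternatives varied the minimum length, the model, the probes required, the tract ends, the scale of the levels and the isolates included.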

Additional observations from a re-analysis of the deposited data

Results flagged for a closer look

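One zygote was flagged against the others of its cross. At the SNPs of the HK10 tract on chromosome II, where HK10 A and B had a median d of −3.32 and −3.21, that of MD893-1 zygote 1 was 0.159, while the other 3 zygotes of that cross had 0.0543 to 0.0690. The gap was larger than Dixon's limit for 4 values. The medians did not cover the same SNPs, with 11 in zygotes 1 and 2, 9 in zygote 3 and 10 in zygote 4. That of zygote 1 was its value at 289056, a SNP with no d in HK10 A or B. Over the 9 SNPs that also had d in HK10, the median was −0.03 in zygote 1 and 0.07 in each of zygotes 2, 3 and 4. Zygote 1 was thus the highest of the 4 with all its SNPs and the lowest with the shared ones. The direction depended on which SNPs were used, its cause was not tested, and zygote 1 is not shown to differ. Of the 13 measures looked at in this way, chance flags about 1 in 20.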

How the results depend on the processing

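The number of tracts on the 3 chromosomes was 4 with state-change probabilities of 0.01 and 1e-06, with homozygous centres of 2 and −2, and with a rule of 5 consecutive SNPs beyond 1.5 in place of the model. It was 6 with a minimum of 3 SNPs, which adds the 2 runs on chromosome II, 1 with a minimum of 10 SNPs, which leaves the right XI tract of HK12, and 2 with only SNPs that had all 4 probes measured, which leaves that tract and the II tract of HK10. Leaving out each isolate in turn gave 3 to 4 tracts, with 3 without HK12 B, which alone holds the inner XI tract. Lengths depended on the placing of the ends. They were 3.66 and 14.8 kb at the outermost SNPs and at the nearest heterozygous SNPs for the II tract of HK10, 2.07 and 3.23 kb for its XIII tract, 7.84 and 11.1 kb for the right XI tract and 2.52 and 31.0 kb for the inner one. Allele levels moved by less than the SD over SNPs under each of the 4 alternatives tried. The HK share of heterozygous SNPs with d beyond 0.5 was 2.80% and was 1.10% with all 4 probes measured. The II difference of s, −0.00 with the default centring, was −0.0136 when centred on all probes (adjusted p = 0.0203, exact permutation test), and leaving out each isolate gave −0.00301 to 0.00364. It turned positive without HK10 A (0.00364), HK12 B (0.00136), MD893-1 zygote 1 (0.000474), MD893-1 zygote 2 (0.000383) or MD893-2 zygote 2 (0.000637). With 1 value per HK name, XI (0.0723) and XIII (−0.0467) no longer passed, at an adjusted p of 0.0762 by the exact permutation test, the smallest this design allows. Leaving out each isolate gave 0.0690 to 0.0770 for XI and −0.0498 to −0.0433 for XIII. No paired analysis was possible because the HK isolates carry letters and the zygotes numbers, so the groups compared share no replicate number.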
